A study of Mus musculus with 4 samples.

Results

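Insulin and the insulin-like growth factors act through receptor tyrosine kinases, and the results below follow 9 genes of that pathway in mouse pancreatic islets, Insr, Igf1r, Igf2r, Irs1, Irs2, Akt1, Akt2, Foxo1 and Igf1. The genes were chosen by name, as a ligand, its receptors, the adaptors, the kinases and a transcription factor of the pathway, and their array probes were found through the RefSeq accession that the array design gives each probe. All 9 genes were measured, by 15 probes, among 26378 genes tested. Islets of 2 Rb-deficient mice, labelled Pdx1-Cre:Rbf/f, were compared with islets of 2 mice labelled Pdx1-Cre, here called control. The sample titles call the latter wild type, but mice of both groups carry the Cre transgene, which the Pdx1 promoter drives in cells of the pancreatic lineage. Each mouse was measured on 1 Agilent array with a single colour, and the age and sex of the mice are not given in the labels.

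In background, a ligand-bound receptor phosphorylates the adaptors Irs1 and Irs2, which recruit PI3-kinase and so activate Akt kinases. Akt phosphorylates the FoxO factors and keeps them out of the nucleus, and a second branch runs through Ras and ERK. In beta cells the pathway is known for its part in compensatory growth and survival, most of all through Irs2. The retinoblastoma protein Rb restrains the E2F transcription factors that drive entry into the cell cycle, and the comparison asks how transcript levels differ in islets where the Rb gene was floxed.

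Values are log2 of the background-subtracted signal minus the 75th percentile of the same array, so a value of 0 is the signal of a probe at that percentile. Levels can be compared between arrays for a probe, but not between probes. Between 60.9% and 77.6% of spots were well above background, with the highest share on control array 1. That array also differed in sex-linked transcripts, with the Y-linked Eif2s3y at 1.15 where the other arrays lay between -7.39 and -7.15, and Xist at -7.40 where they lay between -1.35 and -0.65. The Y-linked Kdm5d, Uty and Ddx3y were also above background on control array 1 alone, and Xist on the other arrays alone. By these transcripts control mouse 1 was male and the other mice were female. The control group thus held both sexes and the Rb-deficient group females only. The part of sex in the differences below was not tested. The beta cell transcripts Ins1 and Ins2 differed by -0.23 and -0.22, both with groups that overlapped. All 10 listed beta cell markers were well above background on every array. Of these 10, 5 were higher and 5 lower in Rb-deficient islets, with a median difference of -0.055. Rb1 was 2.40-fold lower in Rb-deficient islets, at 0.28 and 0.86 in the control mice and -0.48 and -0.90 in the Rb-deficient mice (limma, adjusted p 0.735, Benjamini-Hochberg over all genes). That was its brighter probe, and its other probe was 2.94-fold lower, at -2.23 and -2.11 in the control mice and -3.35 and -4.10 in the Rb-deficient mice. Its adjusted p was 0.655 (limma, Benjamini-Hochberg over all probes). Whether either probe lies in the floxed part is not known here.

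Of the 9 pathway genes, Igf1 was the one with a difference of 2-fold or more, being 2.94-fold lower in Rb-deficient islets. Of all genes, 9.73% differed by 2-fold or more and 8.03% were lower by 2-fold or more. The other 8 genes differed by between -0.21 and 0.20 on the log2 scale, with a median absolute difference of 0.12 where that of all genes was 0.24. None of the 9 was called in limma at an adjusted p of 0.05, with adjusted p values (Benjamini-Hochberg over all genes) from 0.717 to 0.964, and the percentage of all genes called was 0.00. At an unadjusted p under 0.05 stood Igf1 alone of the 9, against 5.66% of all genes, 1493 in number. With 2 arrays against 2, an exact permutation test of a single gene cannot give a p below 0.333, so none was made. The number of arrays limits the precision.

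The groups did not overlap for 3 of the 9 genes, Igf1 and Insr with both Rb-deficient arrays below both controls and Foxo1 with both above. Over all genes 36.0% did not overlap, 20.7% with the Rb-deficient arrays below and 15.3% above, so the share among the 9 was near the background. All 15 probes were well above background on all 4 arrays and none was saturated. The error that the scanner software gives for a spot lay between 10.0% and 19.9% of its signal for these probes, with a median of 10.0%.

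**Figure D1:**
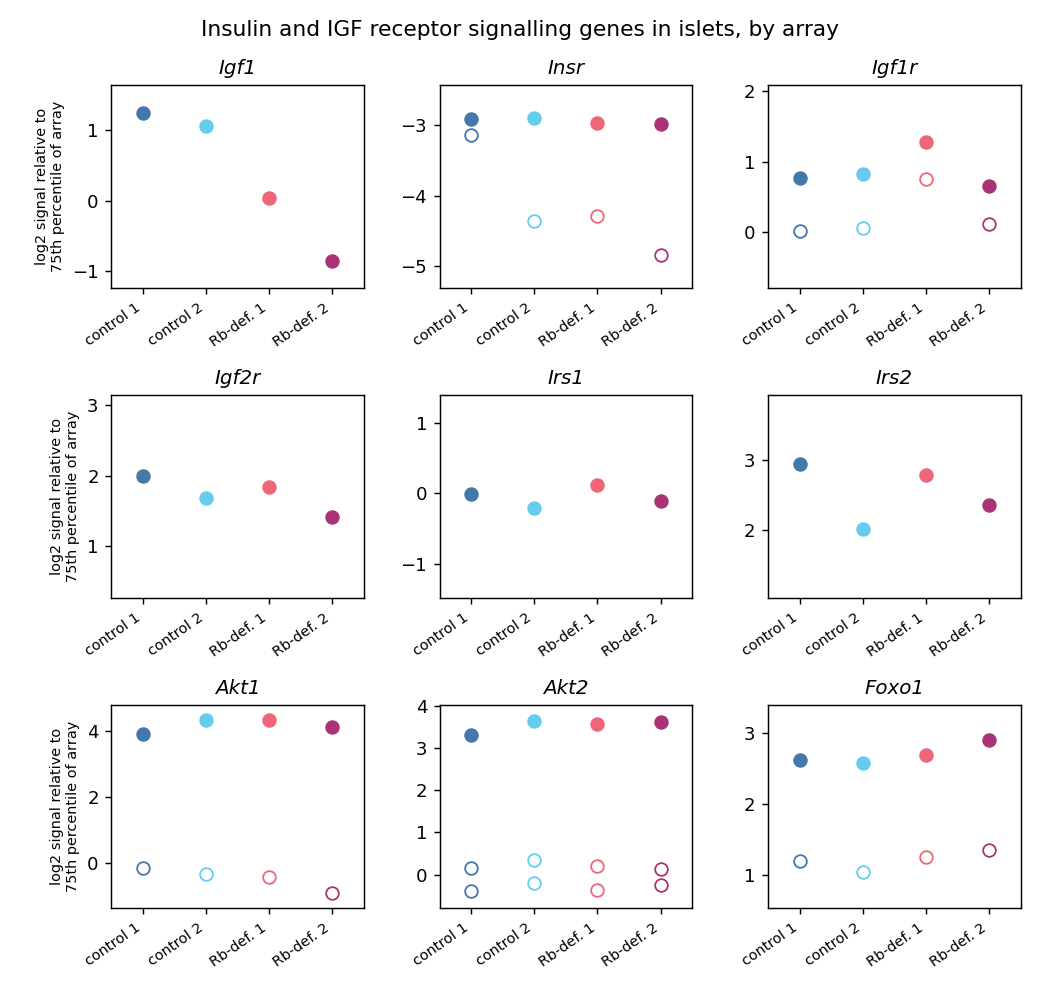
Log2 signal relative to the array's 75th percentile (vertical axis) on control arrays 1 and 2 and Rb-deficient arrays 1 and 2 (horizontal axis), with a panel for each gene. Filled points are the probe used for the gene and open points its other probes, and the vertical range differs between panels; Igf1 stands at 1.24 and 1.06 in the control mice and at 0.033 and -0.85 in the Rb-deficient mice.

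Promoters were searched for letters known from E2F sites, TTGGCGC and TTCCCGC, and from FoxO sites, TGTTTAC, on both strands, since Rb acts on E2F factors and Foxo1 is 1 of the 9 genes. The windows were the 250 bases before each RefSeq start (build GRCm38.p6), and 8 of the 9 genes, all but Insr, had 12 of them. Over all 32851 windows 5.62% held TTGGCGC or TTCCCGC, and 3.17% held TGTTTAC. Among the 9 genes, Irs2 held both E2F strings in its 1 window and Akt1 held the FoxO string in 1 of 2. The windows of Irs2, with both strings in capitals as they read on the printed strand (GCGGGAA and GCGCCAA, their reverse complements), and of Igf1, the gene with the largest difference and none of the strings, are shown to set them side by side. They lie at chr8:11008930-11009179 on the minus strand and at chr10:87860861-87861110 on the plus strand.
Irs2: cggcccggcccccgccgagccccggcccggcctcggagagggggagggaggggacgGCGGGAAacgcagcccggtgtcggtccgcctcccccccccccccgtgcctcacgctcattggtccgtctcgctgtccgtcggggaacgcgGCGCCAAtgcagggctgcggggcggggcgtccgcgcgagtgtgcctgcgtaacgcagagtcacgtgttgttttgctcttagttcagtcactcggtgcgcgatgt
Igf1: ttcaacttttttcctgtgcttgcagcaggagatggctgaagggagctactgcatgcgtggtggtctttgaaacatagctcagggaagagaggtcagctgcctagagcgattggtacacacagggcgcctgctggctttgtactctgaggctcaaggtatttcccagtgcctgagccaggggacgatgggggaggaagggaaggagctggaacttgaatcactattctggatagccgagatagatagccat

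The strings in the Irs2 window begin 194 and 104 bases before the start. Its share of G and C was 72.8%, against 52.8% in the Igf1 window. Irs2, with the E2F strings, differed by 0.093 between the groups, and Igf1, without them in this window, by -1.56. A match is a run of letters and does not show that a factor binds there. Whether such strings go with the size of a difference was not tested.

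Igf1 encodes insulin-like growth factor 1, a secreted ligand of the Igf1r receptor that the liver releases into the blood and that many tissues make locally, mesenchymal cells and macrophages among them. The processed signal of its probe, A_51_P147942 for transcript NM_010512, was 853.7 intensity units on each control array, and 372.3 and 271.3 on Rb-deficient arrays 1 and 2. Scaled to the 75th percentile, this was 1.24 and 1.06 in the control mice and 0.033 and -0.85 in the Rb-deficient mice. The controls lay close together, and both Rb-deficient arrays lay below them, array 2 by more.

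Igf1 averaged 1.15 ± 0.13 (SD, n = 2) over the controls, and over the Rb-deficient mice it averaged -0.41 ± 0.62 (SD, n = 2). The log2 difference was -1.56 with a standard error of 0.37 and a 95% interval of -2.60 to -0.52 in limma, whose adjusted p was 0.717 (Benjamini-Hochberg over all genes) and unadjusted p 0.0147. It was lower on both Rb-deficient arrays than on either control. By unadjusted p it ranked 540 of 26378 genes, and 2.76% of all genes had a more negative difference. In each of the 14 alternative settings it stayed negative, between -2.00 and -1.12, with adjusted p values (limma, Benjamini-Hochberg) of 0.235 or more.

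The arrays held RNA of whole islet preparations, in which fewer cells of a type and less RNA per cell cannot be told apart. The 3 genes with the pattern nearest to that of Igf1, by Euclidean distance between mean-centred log2 values over the 4 arrays among 15822 other named genes, were Cabp2 at 0.087, Gp2 at 0.15 and Gamt at 0.16. Cabp2 encodes a calcium-binding protein, Gamt an enzyme of creatine synthesis, and Gp2 the main membrane protein of zymogen granules in the acinar cells of the exocrine pancreas. Gp2 had log2 signals of 8.56 and 8.50 in the control mice and 7.49 and 6.67 in the Rb-deficient mice. Cabp2 stood at 1.54 and 1.33 on the controls and 0.32 and -0.66 in the Rb-deficient mice. These genes were picked for their likeness to Igf1, so their order of arrays follows from the choice.

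All 12 listed acinar markers were lower in mean in Rb-deficient islets, where 41.9% of all genes were higher. All 12 were well above background on every array, and 9 had both Rb-deficient arrays below both controls, as did 20.7% of all genes. Relative to the control mean the acinar median was -0.44 on Rb-deficient array 1, with a range of -1.20 to -0.020. On array 2 it was -1.28, with a range of -2.00 to -0.65. Igf1 lay at -1.12 and -2.00 on these arrays, at the low end of the acinar range. The summed acinar signal, in units of the 75th percentile, was 8932 and 7243 in the control mice and 6546 and 3720 in the Rb-deficient mice.

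Alpha cell markers were lower too, 5 of 6 measured, all 5 with both Rb-deficient arrays below both controls. The alpha cell medians were -0.58 and -1.22 on Rb-deficient arrays 1 and 2. The controls were themselves apart, at -0.35 and 0.35, so array 2 lay farther below them than array 1. Of 7 ductal markers 6 were lower, with medians of -0.34 and -0.47, and 4 had both Rb-deficient arrays below both controls. Of 11 macrophage markers measured, Cd163 not being among them, 10 were higher in Rb-deficient islets. For 6 of these both Rb-deficient arrays lay above both controls, where 15.3% of all genes did so. The medians of the list were 0.26 and 1.42 above the control mean on Rb-deficient arrays 1 and 2. Its summed signal was 46.3 and 44.9 on the control against 50.7 and 43.5 in the Rb-deficient mice. Itgam, the brightest marker and the only 1 that was lower, had the largest part in that sum. It read 5.15 and 5.05 on the controls and 5.23 and 4.43 in the Rb-deficient mice. Of 8 stellate cell and pericyte markers measured, 4 were higher, with medians of -0.39 and 0.57 and summed signals of 9.40 and 10.9 against 9.02 and 15.7. Every measured marker of both lists was well above background on all arrays. The part of acinar, alpha or other cells in the Igf1 difference was not tested.

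**Figure D2:**
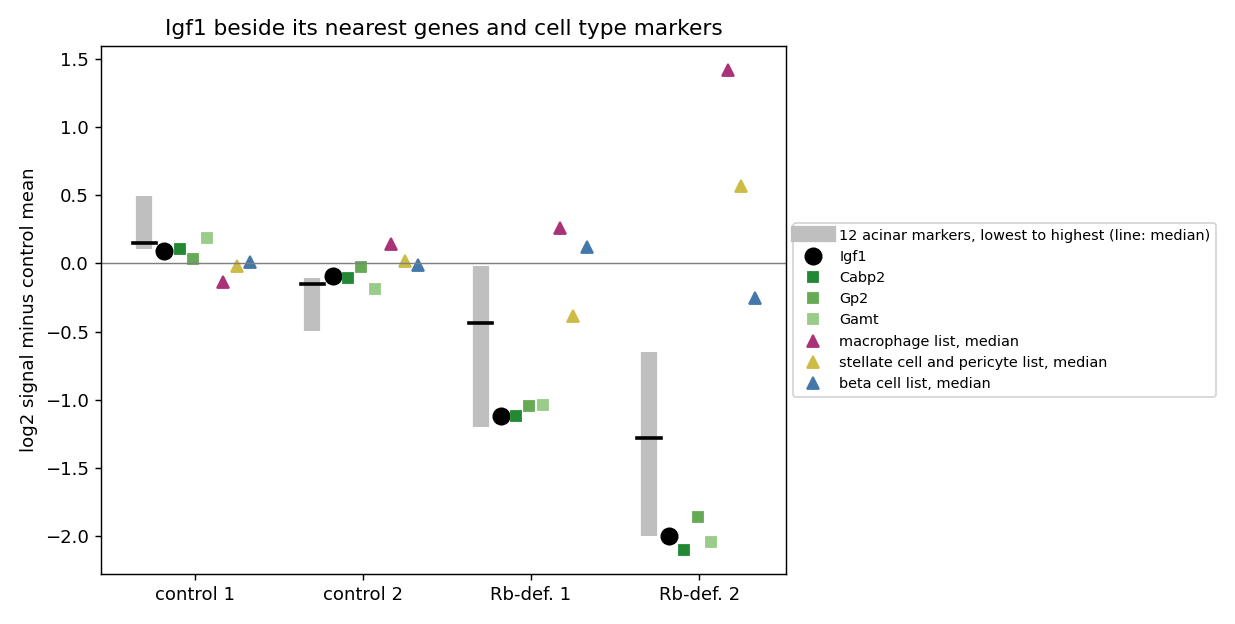
Log2 signal minus the mean of the control arrays (vertical axis) on each of the 4 arrays (horizontal axis). Black circles are Igf1, squares its 3 nearest genes, triangles the medians of marker lists, and grey bars the range of 12 acinar markers; Igf1 lies at -1.12 and -2.00 in the Rb-deficient mice, where the acinar medians are -0.44 and -1.28.

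The receptors differed little in mean. Igf1r encodes the receptor of IGF-1, and its 2 probes had the same order of arrays on the Rb-deficient side. The brighter probe read 0.77 and 0.82 in the control mice and 1.28 and 0.66 in the Rb-deficient mice. The other read 0.021 and 0.060 on the controls and 0.75 and 0.12 in the Rb-deficient mice. Rb-deficient array 1 was thus the highest with both probes, while array 2 lay below both controls with the first and above them with the second. The log2 difference was 0.17 with a standard error of 0.28 and a 95% interval of -0.62 to 0.97 (limma, adjusted p 0.897, Benjamini-Hochberg), and without Rb-deficient array 1 it was -0.14.

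Insr, the gene of the insulin receptor, gave a low signal of 46.4 to 61.5 intensity units with its brighter probe. The log2 values of that probe were -2.92 and -2.90 in the control mice and -2.97 and -2.99 in the Rb-deficient mice. The groups did not overlap, but the log2 difference of -0.069, which turned to 0.37 with median scaling and to 0.34 with quantile normalization, was small against its standard error of 0.17 (95% interval -0.55 to 0.41; limma adjusted p 0.932, Benjamini-Hochberg). The second probe stood at -3.14 on control array 1 and at -4.36 on control array 2, and the Rb-deficient mice gave -4.29 and -4.84, with spot errors of 11.8% to 19.9%. Its difference of -0.82 rested on control array 1, and its groups overlapped.

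Igf2r encodes the receptor that binds IGF-2 and mannose 6-phosphate and sends its cargo to lysosomes. Its log2 signal was 2.00 and 1.68 on the control and 1.84 and 1.42 in the Rb-deficient mice, and the groups overlapped. Rb-deficient minus control, Igf2r differed by -0.21 with a standard error of 0.26 and a 95% interval of -0.93 to 0.52 (limma, adjusted p 0.873, Benjamini-Hochberg). It turned to 0.23 when arrays were scaled to their median and to 0.0032 without Rb-deficient array 2.

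The adaptors Irs1 and Irs2 dock on the activated receptors. Irs1 read -0.011 and -0.21 in the control mice and 0.12 and -0.11 in the Rb-deficient mice, a difference of 0.12 with a standard error of 0.20 (95% interval -0.45 to 0.69; limma adjusted p 0.901, Benjamini-Hochberg). Leaving out Rb-deficient array 1 took the difference of Irs1 to 0.0035, and leaving out control array 2 took it to 0.019. Irs2, the adaptor on which beta cell mass is known to depend in mice, varied more between mice of a group than between groups. It read 2.95 and 2.02 on control arrays 1 and 2 and 2.78 and 2.37 in the Rb-deficient mice, so that the Rb-deficient values lay between the controls.

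The difference of Irs2 was 0.093 with a standard error of 0.41 and a 95% interval of -1.05 to 1.24 (limma, adjusted p 0.964, Benjamini-Hochberg), the widest interval of the 9 genes together with the weakest p. Without control array 2 it was -0.37 and without Rb-deficient array 1 it was -0.11. A change of 2-fold in either direction therefore lies within the interval for Irs2. With the brightest probe the intervals of Insr, Igf1r, Igf2r, Irs1, Akt1, Akt2 and Foxo1 end short of 2-fold, but those of other probes pass it, with -2.25 to 0.61 for Insr, -1.13 to 0.26 for Akt1 and -0.40 to 1.19 for Igf1r.

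Akt1 and Akt2 encode the kinases that carry the signal from PI3-kinase onward. With its brighter probe Akt1 read 3.92 and 4.34 on the control and 4.35 and 4.12 in the Rb-deficient mice, a difference of 0.11 with a standard error of 0.24 (95% interval -0.58 to 0.80; limma adjusted p 0.925, Benjamini-Hochberg). Its second probe disagreed, at -0.15 and -0.34 on the controls and -0.45 and -0.91 in the Rb-deficient mice, a difference of -0.43 with groups that did not overlap (adjusted p 0.863 over all probes, limma with Benjamini-Hochberg). The direction of Akt1 is thus not settled, and the difference was -0.16 when its probes were averaged and -0.11 without control array 1.

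The 3 probes of Akt2, the form known from insulin-driven glucose uptake, differed by 0.12, -0.012 and -0.083. The brightest read 3.31 and 3.64 on the controls and 3.57 and 3.61 in the Rb-deficient mice. All 3 had groups that overlapped. The standard error of the first was 0.21 and its 95% interval -0.47 to 0.71 (limma, adjusted p 0.901, Benjamini-Hochberg), and it turned to -0.043 without control array 1.

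Foxo1 encodes the FoxO factor that represses beta cell proliferation when it is in the nucleus. Its log2 signal was 2.63 and 2.59 on the control and 2.70 and 2.91 in the Rb-deficient mice. The second probe read 1.19 and 1.03 against 1.25 and 1.35. With both probes each Rb-deficient array lay above each control, and array 2 was the highest. The differences were 0.20 and 0.18, which is 1.15-fold and 1.13-fold, and the first had a standard error of 0.19 and a 95% interval of -0.33 to 0.72 (limma, adjusted p 0.866, Benjamini-Hochberg). In the 14 alternative settings the difference of Foxo1 stayed between 0.093 and 0.64.

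**Figure D3:**
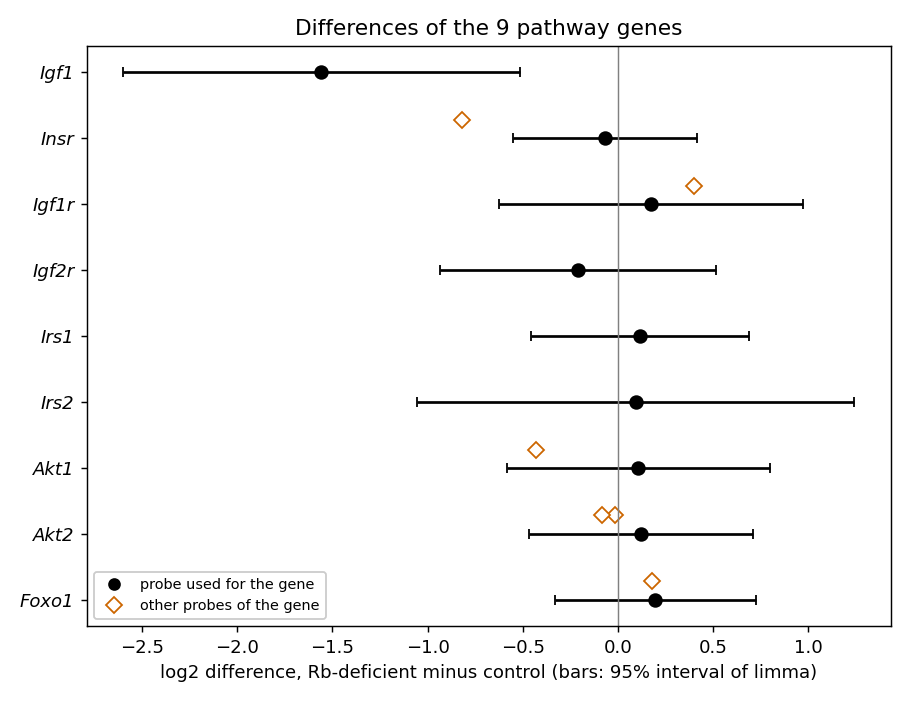
Log2 difference of Rb-deficient minus control islets (horizontal axis) for each of the 9 genes (vertical axis). Black points with bars are the probe used for the gene with limma's 95% interval, and open diamonds the gene's other probes; the interval of Igf1, -2.60 to -0.52, lies below 0 and those of the other genes span it.

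Of all probes of the 9 genes, 8 were higher and 7 lower in Rb-deficient islets, and 6 had groups that did not overlap, 3 above and 3 below, where 36.1% of all probes did not, 14.8% above and 21.3% below. By gene, 6 of 9 were higher, a count that was 3 without Rb-deficient array 1, 4 without control array 1 and 8 with median scaling. Scaling to the array median took the all-gene median from -0.068 to 0.37 and added the same amount to every gene.

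The wider pathway was described by lists of 96 genes in all, of which 92 were measured. None was called in limma over all genes (Benjamini-Hochberg), and Igf1, Igf2 and Pdk4 were among those with an unadjusted p under 0.05. The median difference was 0.071, where that of all genes was -0.068. Of the 92 genes 63.0% were higher, against 41.9% of all genes, and for 34.8% the groups did not overlap, against 36.0%. These shares are given as a description, with no test. The comparison was not like for like, since 15823 of all 26378 genes had a gene name and the listed genes all did. The gap in medians also depended on the scaling. After quantile normalization the median was 0.069 for the listed genes and 0.032 for all genes.

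Igf2, the gene of the fetal growth factor IGF-2 and the other IGF ligand, went the opposite way to Igf1. It read -2.18 and -2.50 in the control mice and -1.19 and -0.29 in the Rb-deficient mice, both above both controls. It was 3.04-fold higher, with a log2 difference of 1.60 and a standard error of 0.38 (limma, adjusted p 0.729, Benjamini-Hochberg), and 1.16 with its other probe. With median scaling the difference was 2.04 and passed the threshold, at an adjusted p of 0.0140 (limma, Benjamini-Hochberg). Igf2 was the only listed gene called in any of the 14 settings. Median scaling raised every gene by the same amount and called 480 of all 26378 genes. Its standard error for Igf2 was 0.548, the same as for Igf1, so the spread of Igf2 itself did not count. On the same Rb-deficient arrays, where Igf2 stood 1.16 and 2.05 above the control mean, the macrophage median stood at 0.26 and 1.42 and the median of 8 cycling cell markers at 1.76 and 2.86, and their part in the Igf2 difference was not tested.

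Proteins that bind IGFs in the extracellular space limit their access to the receptor. Of 7 such genes 5 were measured, Igfbp1 and Igfbp2 not passing the filter on dim probes, and 4 of the 5 were higher. Igfbp5 read -0.97 and -0.65 on the control and -0.63 and -0.11 in the Rb-deficient mice, a difference of 0.44 with groups that did not overlap. Igfbp6 differed by -1.10 with a standard error of 0.68, at -2.06 and -3.43 on the controls and -3.25 and -4.44 in the Rb-deficient mice, and its groups overlapped (limma, adjusted p 0.863, Benjamini-Hochberg). Over the 14 settings Igfbp6 ran from -1.78 to -0.41 and Igfbp5 from 0.18 to 0.87. Insrr, which encodes the insulin receptor-related receptor, read 6.57 and 7.13 against 6.69 and 6.31, a difference of -0.35 that turned to 0.086 with median scaling. The other Insrr probe differed by -0.38.

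Among 15 adaptors and their inhibitors 9 were higher and 6 lower, with a median of 0.093. Grb10, whose product binds and inhibits the insulin receptor, was 1.87-fold lower, at -1.20 and -1.98 on the controls and -1.95 and -3.03 in the Rb-deficient mice, with overlapping groups. Over the 14 settings its log2 difference ran from -1.44 to -0.36, and its other probe differed by -1.21. Shc1, the adaptor toward Ras, was 1.18-fold higher, with both Rb-deficient arrays above both controls, and its other probe differed by 0.13. Of 9 genes of PI3-kinase and lipid phosphatases 7 were higher, with a median of 0.14. Inpp5d, which encodes the lipid phosphatase SHIP1 of blood cells, differed by 0.62, at -2.12 and -2.57 against -1.89 and -1.57. Macrophage markers, given above, were higher on the same arrays, and their part was not tested.

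Of 10 genes of Akt, its substrates and its phosphatases 8 were higher, but within a narrow range of -0.35 to 0.21. Tbc1d4 encodes the Akt substrate that holds glucose transporter vesicles back until Akt phosphorylates it. The gene read -0.86 and -0.99 on the controls and -1.30 and -1.26 in the Rb-deficient mice, 1.28-fold lower. Its 3 probes were all lower, with log2 differences of -0.84 to -0.35, whereas median scaling turned the first to 0.087. Gsk3b, a kinase that Akt inhibits, was 1.15-fold higher, and its 3 probes differed by 0.011 to 0.21.

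Of the other FoxO genes, Foxo3 and Foxo6 differed by -0.30 and 0.32, both with overlapping groups, and Foxo4 did not pass the filter. Without Rb-deficient array 2 both turned, Foxo3 to 0.29 and Foxo6 to -0.12. The other probe of Foxo3 differed by -0.94. Of 17 FoxO target genes measured 12 were higher and 5 lower, 4 with both Rb-deficient arrays above and 4 with both below both controls, where 15.3% and 20.7% of all genes did so, and the median was 0.071. Pdk4, which encodes a kinase that shuts pyruvate dehydrogenase, stood apart, at -0.46 and -0.26 in the control mice and -1.30 and -2.14 in the Rb-deficient mice. It was 2.57-fold lower, with a log2 difference of -1.36 and a standard error of 0.36 (limma, adjusted p 0.787, Benjamini-Hochberg). Relative to the control mean it lay at -0.94 and -1.78, where the acinar median lay at -0.44 and -1.28, and the part of acinar tissue in it was not tested. Cdkn1b, the gene of the cell cycle inhibitor p27, read 2.34 and 2.31 against 2.62 and 2.66, 1.24-fold higher.

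In the mTOR list 6 of 14 genes were higher and 8 lower, with a median of -0.017. Eif4ebp1, which encodes the repressor of cap-dependent translation that mTOR switches off, read 3.18 and 2.74 on the controls and 2.79 and 1.36 in the Rb-deficient mice, and its low mean rested on Rb-deficient array 2. Rps6kb2, an S6 kinase gene, differed by -0.46, and its Rb-deficient arrays lay at -0.17 and -0.76 relative to the control mean, so that this difference too rested mostly on array 2. In the Ras and ERK list 9 of 13 genes were higher, with a median of 0.076. Spry2, which encodes an inhibitor of that branch, differed by 0.32 with 1 probe, or 0.067 without Rb-deficient array 2, and by -0.25 with the other.

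**Figure D4:**
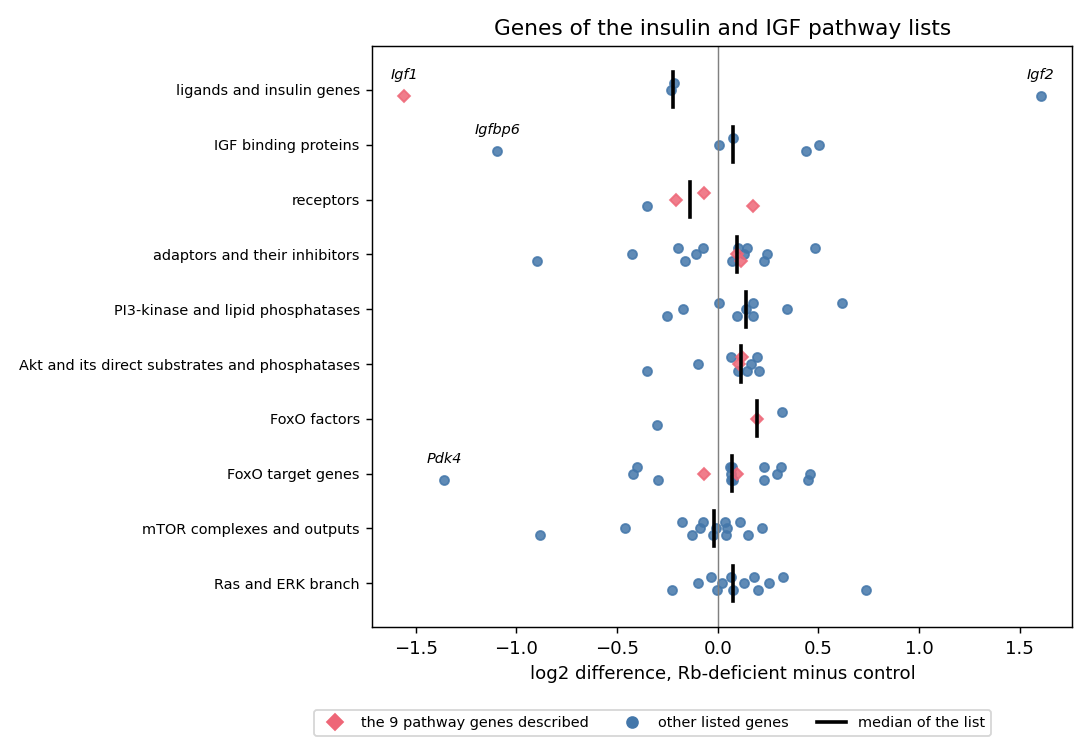
Log2 difference of Rb-deficient minus control islets (horizontal axis) for each measured gene of 10 lists of the insulin and IGF pathway (vertical axis, a gene can be in several lists). Red diamonds are the 9 genes described first, blue circles the others and black bars the median of a list; names mark Igf1, Igf2, Igfbp6 and Pdk4, the genes past 2-fold.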

How the data were processed

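Per the labels, RNA was amplified and labelled with Cy3. Spot intensity was deposited by the authors as scanner output. Its headers name Feature Extraction 12.0.3.1 (Agilent), background subtraction and spatial detrending; the design is annotated on mm9. The values show no scaling between arrays. All 4 arrays lay on 1 slide. The authors' deposited value table held the same intensity values times a constant per array (2.44, 2.15, 2.49 and 1.74; column medians 220.1, 180.7, 188.3 and 157.3), so the scale is linear and uncentred, and the rule behind the constants is unknown.

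Between 64 and 93 spots an array carried an outlier mark and were not used. Log2 values were scaled to the 75th percentile. A probe was kept where either group had it well above background on both its arrays (33845 probes), and the brightest stood for its gene. Accessions were matched without versions to RefSeq (GRCm38.p6), which named 32994 of 56605 probes. Groups came from the titles; the test was that of limma 3.58.1 under R 4.3.3 (two-sided, 2 residual degrees of freedom, prior worth 1.82), checked on simulated data.

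The genes, lists and tests were chosen with earlier results of these data known. Named besides the 9 genes were Rb1, Ins1, Ins2, the 3 nearest genes of Igf1 and, of each list, at most 2 genes with the smallest p. An item withheld for evaluation is not reported here. The alternatives were 2 other scalings, normexp on median signals (offset 50), 2 filters, averaged probes, an intensity trend, array weights, a replicate block, the deposited table and each array left out. They kept the same genes and probes unless the filter or the probe rule was the choice.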

Additional observations from a re-analysis of the deposited data

How the results depend on the processing

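No gene was called as reported (limma, 1493 at an unadjusted p under 0.05), nor in 13 of 14 alternatives, and median scaling called 480. Under median scaling the 9 genes all had the same standard error, 0.548, so that their own spread did not count. The pathway median moved from 0.071 to 0.509 with that scaling, which shifts all genes, and lay between 0.020 and 0.067 with an array left out. Of the 9 genes' differences, Igf1, Foxo1 and Irs1 kept their direction in all 14, though Irs1 ranged from 0.0035 to 0.23 with an array left out. Median scaling turned Igf2r to 0.23 and Insr to 0.37, quantile normalization turned Insr to 0.34, and averaged probes turned Akt1 to -0.16. With an array left out, Akt1 ranged from -0.11 to 0.32, Akt2 from -0.043 to 0.29, Igf1r from -0.14 to 0.48, Igf2r from -0.42 to 0.0032 and Irs2 from -0.37 to 0.56. The cause was not tested. With the replicate number as a block, which the labels do not say pairs mice, 0 genes were called and Igf1 differed by -1.56 with an adjusted p of 0.324 (limma, Benjamini-Hochberg). Deviations from the group mean of the control and Rb-deficient arrays numbered 1 had r = 0.295 across 26378 genes, which are not independent. An array left out leaves 1 in its group, assumed to vary like the other group. The count of genes higher was added after the data were seen.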
